A study of Mus musculus with 10 samples.

Results

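Neuropeptides, peptide hormones and the proteins of the granules that store them were examined as 60 genes listed by symbol. Of these, 52 had a probe whose platform annotation gave that single symbol, among 13840 genes named in this way on the array. A gene was represented by its probe with the highest mean log2 intensity over the 10 arrays. Only Igsf1 had more than 1 probe. The other 8, Pmch, Nms, Calca, Gcg, Gnrh1, Agrp, Vgf and Pcsk2, had no such probe and are not analysed here.

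The series set repeat hybridisations of a pair of pooled mouse RNAs against each other on a single-channel Applied Biosystems array, within a comparison of array platforms. The retina RNA came from adult C57/B6 mice (350 pooled, 5 arrays). The cortex RNA came from mice at postnatal day 1 (19 pooled, 5 arrays), of the C57/B6 strain in the sample descriptions and of the Swiss-Webster strain in the series text. No treatment or altered genotype is given for either pool, and the titles of the retina arrays carry the letters P1 without explanation. Arrays of a tissue repeat 1 pool, so the tests measure the spread between arrays and not between animals. Tissue cannot be told apart from age or, if the series text is right, from strain. In pooled tissue, fewer cells of a type and less RNA per cell cannot be told apart either.

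Peptide transmitters and hormones are made as larger precursors that enter the regulated secretory pathway. In the trans-Golgi network, granins aggregate with the precursors into dense-core granules, where prohormone convertases cut them at pairs of basic residues, carboxypeptidase E trims the ends and an amidating enzyme finishes many of the active peptides. In the adult retina such peptides are known mainly from subsets of amacrine and ganglion cells, and in the cortex from interneurons and some projection neurons. The pituitary and hypothalamus are the classical sources of the hormones among these genes.

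All intensities below are quantile-normalized log2 values, and differences are retina minus cortex on that scale. A gene was called when limma gave a Benjamini-Hochberg adjusted p under 0.05 over all 33012 probes and the difference was at least 2-fold. On the deposited scale, array medians ran from 836 to 987 for retina and from 1255 to 1341 for cortex. No detection flag was used. To judge dim signal, 747 probes named for olfactory receptors served as a yardstick, and their 95th percentile lay at 10.77 in retina and 10.65 in cortex. A tissue mean below its yardstick is called dim, and such a value was not shown to lie above background. All 3 measured rod genes were higher in retina. Of 7 measured forebrain interneuron genes, 5 were lower and 1 was higher (Gad1, 1.40). These lists were chosen with earlier results of these data known, so they give no independent check of the tissue labels.

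Of the 52 measured genes, 11 were higher in retina, 18 were lower and 23 were not called. The called share was 55.8%, beside a background of 29.0% of all named genes (14.2% higher and 14.7% lower). The 5 arrays of retina all lay on one side of the 5 of cortex for 33 of the 52 genes, or 63.5%, with 13 above and 20 below. Over all named genes this share was 50.3% (25.1% above and 25.2% below). The median difference was -0.10 for these genes and 0.00 for all named genes, and the median size of a difference, without its sign, was 1.20 and 0.56. Without normalization, which left the median difference over all probes at -0.41, 8 of the 52 were higher and 22 lower, beside backgrounds of 8.86% and 24.3%. Of the 29 called genes, 15 were dim in at least 1 tissue and 3 of those, Hcrt, Ucn and Nppb, in both.

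**Figure D1:**
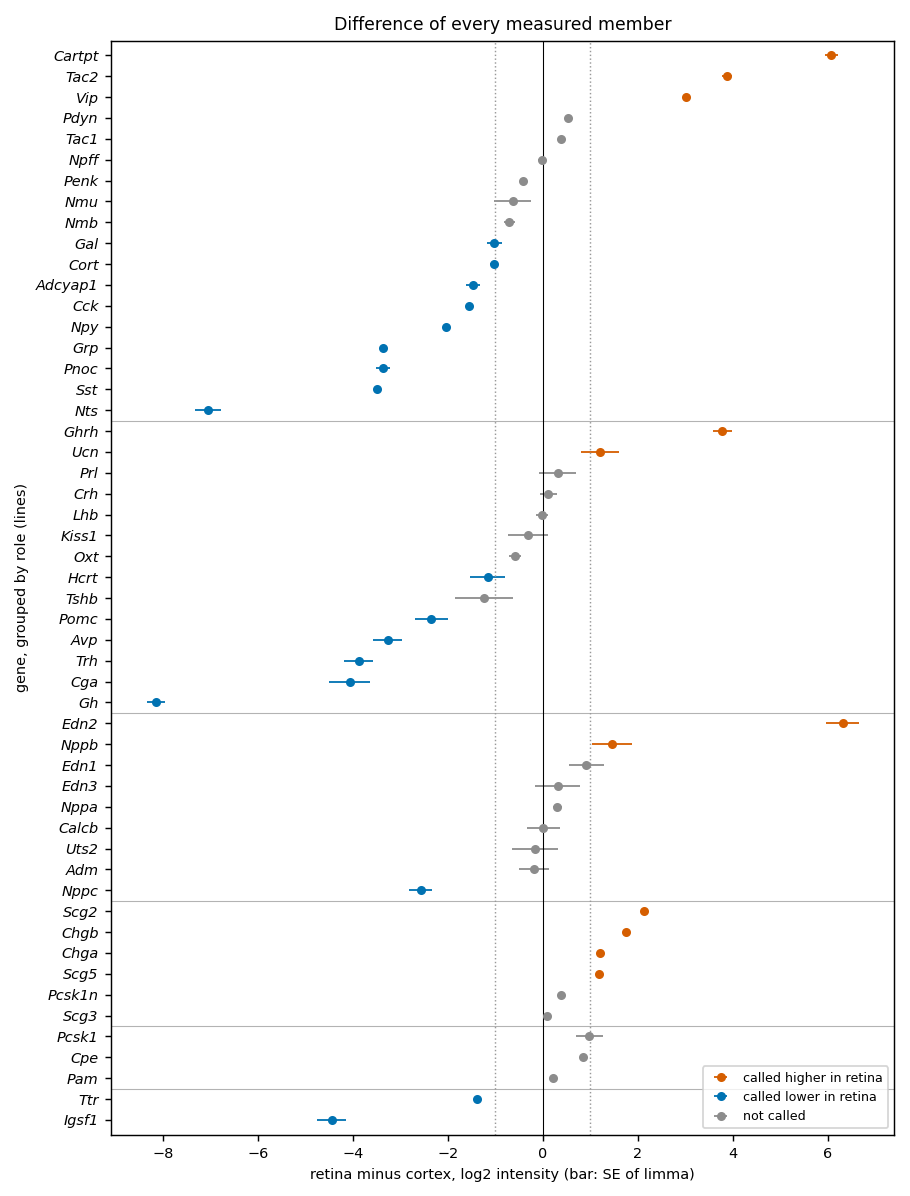
Retina minus cortex difference (log2 intensity, horizontal axis) of the 52 measured genes, grouped by role, with the SE of limma as bars and dotted lines at the 2-fold minimum. The differences run from -8.15 (Gh) to 6.31 (Edn2). Of the 6 granule proteins, 4 lie beyond the right dotted line (66.7%, beside 14.2% of all named genes called higher) and none beyond the left one.

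The neuropeptide genes were divided, and more of them were lower in retina than higher. Of 18 measured, 3 were higher (16.7%), 9 lower (50%) and 6 not called, beside 14.2% higher and 14.7% lower of all named genes. The higher share thus lay near the background, and the median difference was -0.87. Cartpt, Tac2 and Vip were the genes higher in retina. Nts, Sst, Pnoc, Grp, Npy, Cck, Adcyap1, Cort and Gal were lower.

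Cartpt, the precursor of the CART peptides, which mark a set of retinal ganglion cells, stood at 17.10, 17.02, 16.84, 17.13 and 16.90 on retina arrays 1 to 5. On cortex arrays 1 to 5 it read 10.92, 10.51, 11.56, 10.87 and 10.77, close to the yardstick. Every retina array lay more than 5 log2 units above every cortex array, and the means differed by 6.07 (SE 0.14, adjusted p = 6.84e-16). Tac2, the precursor of neurokinin B, read 15.72, 15.44, 15.48, 15.92 and 15.84 in retina and 11.53, 11.77, 11.92, 12.10 and 11.72 in cortex. It was measured above the yardstick in both tissues and differed by 3.88 (SE 0.11, adjusted p = 8.11e-15), a 14.7-fold excess in retina. Vip, vasoactive intestinal peptide, which amacrine cells and cortical interneurons both make, read 14.71, 14.89, 14.71, 14.77 and 14.76 in retina. Its cortex values were 11.81, 11.80, 11.66, 11.66 and 11.80, so the spread within each tissue was small beside the difference of 3.02 (SE 0.06, adjusted p = 2.24e-16).

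Nts, the precursor of neurotensin, showed the opposite pattern. It read 15.67, 15.73, 15.66, 15.64 and 15.61 on the cortex arrays and 8.66, 8.04, 8.17, 10.04 and 8.16 on those of retina. All 5 retina values were dim, with array 4 above the other 4, and the difference was -7.05 (SE 0.28, adjusted p = 8.24e-13). With every value below the same percentile on its own array raised to that percentile, which averaged 10.89 in retina and 10.83 in cortex (below, dim values raised), the difference was -4.77, a 27.3-fold excess in cortex.

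Somatostatin and its relative were both lower in retina. Sst read 13.46, 13.59, 13.40, 13.42 and 13.47 in retina and 17.03, 17.08, 16.99, 16.86 and 16.91 in cortex. Neither tissue was dim, and the difference of -3.50 (SE 0.05) was far larger than the spread between arrays (adjusted p = 5.78e-18). Cort, cortistatin, a peptide that binds the somatostatin receptors, differed by only -1.04 (SE 0.08, adjusted p = 1.11e-08), with means of 12.05 ± 0.15 (SD, n = 5) for retina and 13.09 ± 0.08 for cortex. This is just past the 2-fold minimum, and with array medians set equal or without retina replicate 3 it was no longer called (-0.91 and -0.98).

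Grp, gastrin-releasing peptide, averaged 11.55 ± 0.07 (SD, n = 5) on the retina arrays against 14.90 ± 0.06 on those of cortex, a 10.2-fold lower level in retina (-3.36, SE 0.06). Its relative Nmb, neuromedin B, did not reach the 2-fold minimum (-0.71, SE 0.12), although all 5 retina arrays lay below all 5 of cortex. Without normalization it was called lower (-1.14). Pnoc, the precursor of nociceptin, read 10.43, 9.81, 9.72, 10.29 and 10.57 in retina, all dim, and 13.56, 13.52, 13.56, 13.45 and 13.60 in cortex (-3.37, SE 0.15, adjusted p = 3.93e-12, and -2.64 with dim values raised).

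The other opioid precursors were bright in both tissues and not called. Penk, proenkephalin, averaged 14.64 ± 0.07 in retina against 15.07 ± 0.07 in cortex (SD, n = 5). Pdyn, prodynorphin, averaged 14.88 ± 0.12 and 14.35 ± 0.04. Their differences of -0.43 (SE 0.05) and 0.52 (SE 0.06) stayed under the 2-fold minimum in opposite directions, although in both genes the arrays of the tissues did not overlap.

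Npy, neuropeptide Y, read 14.84, 14.70, 14.58, 14.68 and 14.54 in retina and 16.77, 16.80, 16.70, 16.57 and 16.69 in cortex. No retina array came within 1 log2 unit of a cortex array, and the difference was -2.04 (SE 0.06, adjusted p = 1.94e-14), or 4.11-fold. Cck, cholecystokinin, differed by -1.55 (SE 0.05), with means of 15.62 ± 0.09 for retina and 17.17 ± 0.06 for cortex (SD, n = 5). Adcyap1, which encodes PACAP, a relative of vasoactive intestinal peptide, was lower by a similar amount (-1.48, SE 0.15), with its retina mean of 10.87 just above the yardstick. Gal, galanin, was dim in retina (10.57 ± 0.22) and averaged 11.59 ± 0.16 in cortex (SD, n = 5). Its difference of -1.02 (SE 0.15) lay at the 2-fold minimum, and the call was lost with array medians set equal (-0.99), without retina replicate 2 (-0.94), without cortex replicate 3 (-0.99) and with dim values raised (-0.70). It was also lost without retina replicate 4, where the value fell just short of 2-fold.

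Tac1, the precursor of substance P, averaged 14.16 ± 0.09 in retina against 13.79 ± 0.08 in cortex (SD, n = 5) and was not called (0.38, SE 0.06). Npff was nearly equal in both, at 12.65 and 12.68. Nmu was dim in both tissues (-0.64, SE 0.39) and was called lower without normalization (-1.03).

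**Figure D2:**
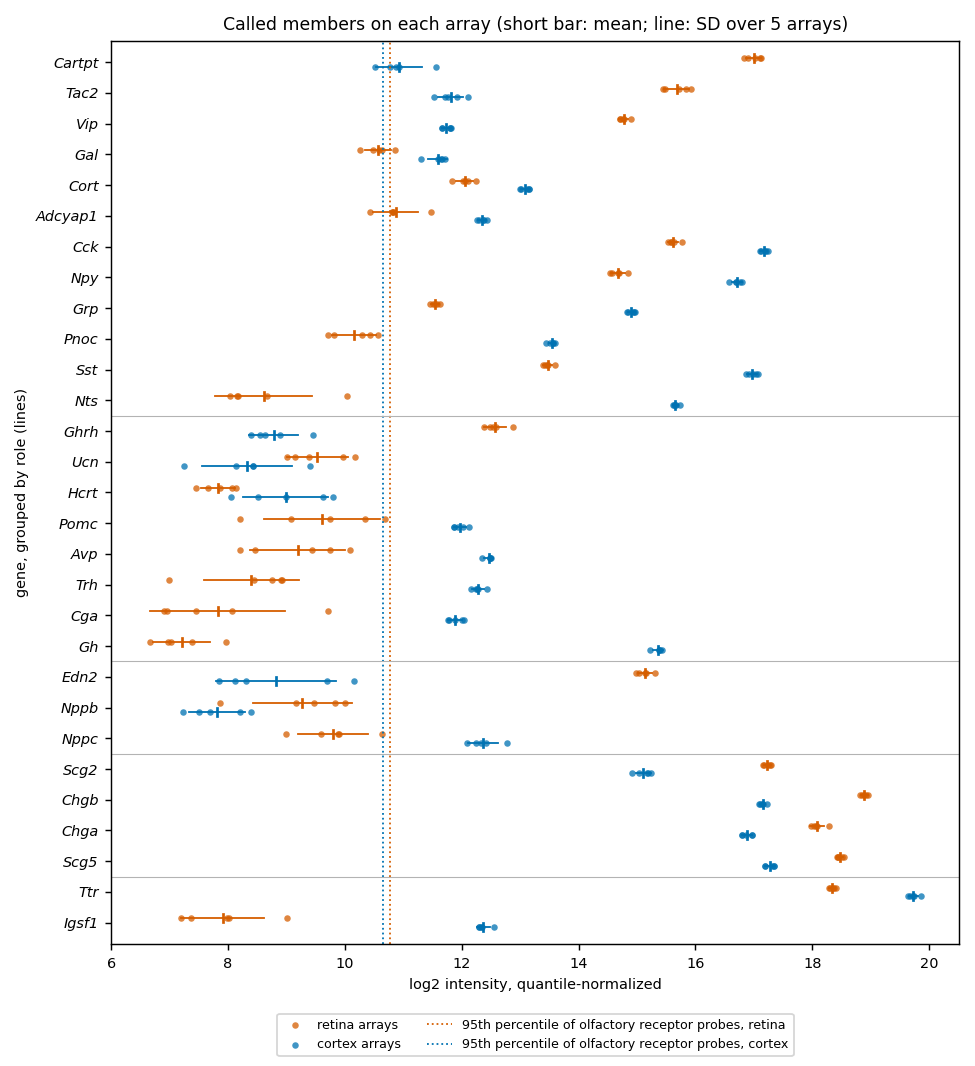
Quantile-normalized log2 intensity (horizontal axis) of the 29 called genes on each of 5 retina and 5 cortex arrays, with the mean (short bar), the SD (line) and the 95th percentile of olfactory receptor probes in each tissue (dotted). In 26 of the 29 (89.7%) the arrays of the tissues do not overlap, beside 91.7% of all called named genes, and the wide scatter lies to the left of the dotted lines.

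The hormone genes were mostly higher in cortex or too dim to read. Of 14 measured genes of hypothalamic and pituitary hormones, 2 were higher in retina, 6 were lower and 6 were not called. These shares of 14.3% higher and 42.9% lower stand beside 14.2% and 14.7% of all named genes. In 4 of the 6 not called both tissues were dim.

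Gh, growth hormone, read 15.37, 15.23, 15.37, 15.43 and 15.39 on cortex arrays 1 to 5. Retina arrays gave 6.98, 6.67, 7.02, 7.39 and 7.96, all far below the yardstick. The difference was -8.15 (SE 0.19, adjusted p = 1.2e-15), and -4.47, or 22.1-fold, with dim values raised. Cga, the alpha subunit shared by the glycoprotein hormones, was at 11.89 ± 0.12 in cortex and 7.82 ± 1.16 in retina (SD, n = 5). Pomc, the precursor of corticotropin, melanocortins and beta-endorphin, was at 11.97 ± 0.11 and 9.61 ± 0.99. Both were dim in retina, with differences of -4.07 (SE 0.43) and -2.35 (SE 0.35). With dim values raised both stayed called, Pomc at -1.07 and Cga at the 2-fold minimum itself. Igsf1, a membrane glycoprotein of pituitary hormone cells, was at 12.37 ± 0.11 in cortex and 7.91 ± 0.71 in retina (-4.45, SE 0.30). A second Igsf1 probe was dim in both tissues, with a difference of -1.01 (SE 0.36).

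The remaining pituitary hormone genes were not called. Prl, prolactin, read 7.68 ± 0.44 in cortex and 8.0 ± 0.82 in retina, and Tshb, the thyrotropin beta subunit, read 10.14 ± 0.94 and 8.89 ± 1.48 (SD, n = 5), all dim. Tshb was called lower without normalization (-1.73) and without retina replicate 5 (-1.78). Lhb, the beta subunit of luteinizing hormone, was at 11.58 and 11.56. Over the whole pituitary marker list, 10 of 15 genes were measured (4 of them already among the 52), 1 was lower in retina (Cga), 1 was higher (Lhx4, also known from retinal neurons, 3.36, SE 0.31, but 0.11 and not called with dim values raised) and 8 were not called. The called share was 20%, beside 29.0% of all named genes. In 6 of the 10, among them Prl, Tshb, Tbx19 (0.64), Pitx1 (-0.50) and Ghrhr (-0.09), both tissues were dim. The summed linear intensity of the 10 genes was 15400 to 20400 on the retina arrays and 15800 to 16500 on those of cortex, with Lhx3 as the brightest gene in both (57.6% and 37.9% of the sum). The part of such cells in the Gh, Cga and Pomc values was not tested.

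Avp, vasopressin, was lower in retina, at 8.46, 9.75, 10.08, 8.21 and 9.44 against 12.51, 12.49, 12.49, 12.34 and 12.49 in cortex. The retina values were dim and scattered, whereas those of cortex ran from 12.34 to 12.51. The difference was -3.27 (SE 0.30), and -1.57 with dim values raised. Oxt, oxytocin, its neighbour in function, was at 11.30 ± 0.26 and 11.90 ± 0.13 (SD, n = 5) and was not called (-0.59, SE 0.13), but it was called lower without normalization (-1.06). Trh, thyrotropin-releasing hormone, was dim in retina at 8.40 ± 0.81 and was at 12.28 ± 0.10 in cortex (-3.88, SE 0.31, and -1.39 with dim values raised). Ghrh, growth hormone-releasing hormone, went the other way. It read 12.58, 12.49, 12.38, 12.53 and 12.87 in retina and 9.46, 8.89, 8.63, 8.39 and 8.54 in cortex, where it was dim. Its difference was 3.78 (SE 0.21, adjusted p = 6.87e-11), and 1.74 with dim values raised.

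Hcrt, the orexin precursor, and Ucn, urocortin, were called at -1.16 (SE 0.37) and 1.21 (SE 0.40), but both tissues were dim and their arrays overlapped. Neither call held with dim values raised, with a 500-unit offset before the log, or in a test against a 1.5-fold difference. Each was also lost without cortex replicate 4 (-0.99 for Hcrt and 0.93 for Ucn). Hcrt was lost without cortex replicate 5 (-0.95), and Ucn without normalization (0.76) and without retina replicate 2 (1.05, adjusted p = 0.055). Crh, corticotropin-releasing hormone, and Kiss1 were dim in both tissues. Of the hypothalamic marker list, 8 of 11 were measured (5 of them already among the 52), 1 was higher (Ghrh), 3 were lower and 4 were not called, with 5 dim in both tissues. The called share was 50%, beside 29.0% of all named genes. The summed intensity of these 8 genes ran from 10300 to 13100 in retina, 53.4% of it Ghrh, and from 12200 to 14100 in cortex, 43.1% of it Avp. Without normalization 1 was higher and 5 lower, beside backgrounds of 8.86% and 24.3%. With dim values raised the counts were 1 and 1, beside 19.1% of all named genes called either way. Whether other brain regions contributed to the cortex pool was not tested.

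Among peptides better known from vessels and heart, 1 stood out. Edn2, the precursor of the vasoconstrictor endothelin 2, read 14.99, 15.15, 15.31, 15.04 and 15.14 in retina and 9.69, 8.12, 10.15, 7.84 and 8.30 in cortex. The retina arrays were tight and well above the yardstick, and the cortex arrays were dim and scattered. The difference was 6.31 (SE 0.34, adjusted p = 6.24e-11), and 4.30, or 19.7-fold, with dim values raised. Edn1, the endothelin of vascular endothelium, was dim in both tissues and not called (0.91, SE 0.37, adjusted p = 0.0553). Without cortex replicate 3 it was called higher (1.26). Edn3 was also dim in both tissues and not called (0.31, SE 0.47). Of 7 endothelial markers, 1 was higher in retina (Kdr, 2.17), 3 were lower, among them Cldn5 (-2.03), and 3 were not called. The called share was 57.1%, beside 29.0% of all named genes. Without normalization 6 of the markers were lower, beside a background of 24.3%, and with dim values raised only Cldn5 was. Their summed intensity ran from 82600 to 97400 in retina, 78.7% of it Kdr, and from 85200 to 89500 in cortex, 70.8% of it Cldn5.

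Nppc, C-type natriuretic peptide, was lower in retina, at 9.80 ± 0.60 against 12.37 ± 0.26 in cortex (SD, n = 5), with retina dim (-2.57, SE 0.24, and -1.48 with dim values raised). Nppa, atrial natriuretic peptide, was at 13.07 ± 0.21 and 12.77 ± 0.12 and was not called (0.30, SE 0.095). Nppb was called at 1.46 (SE 0.42), but both tissues were dim, their arrays overlapped and the call was lost with dim values raised. Adm, Calcb and Uts2 were dim in both tissues and not called.

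The granule proteins were higher in retina or showed no call, and none was lower. Of 6 measured, Scg2, Chgb, Chga and Scg5 were higher (66.7%, beside 14.2% of all named genes). Pcsk1n and Scg3 were not called, and none of the 6 was dim in either tissue. The median difference was 1.20.

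Scg2, secretogranin II, read 17.18, 17.24, 17.16, 17.30 and 17.28 in retina and 14.92, 15.24, 15.17, 15.19 and 15.04 in cortex. This was the widest gap among the granins (2.12, SE 0.06, adjusted p = 1.08e-14), a 4.35-fold excess in retina. Chgb, chromogranin B, read 18.88, 18.96, 18.92, 18.82 and 18.86 against 17.15, 17.23, 17.11, 17.09 and 17.14 (1.74, SE 0.05, adjusted p = 1.04e-14). Chga, chromogranin A, averaged 18.09 ± 0.12 in retina against 16.88 ± 0.09 in cortex, and Scg5, also called 7B2, the chaperone of the convertase encoded by Pcsk2, at 18.47 ± 0.05 and 17.28 ± 0.08 (SD, n = 5). In all 4 genes the arrays of the tissues did not overlap. The last pair depended on the scaling: without normalization Chga and Scg5 were at 0.71 and 0.66, short of the 2-fold minimum, while Scg2 and Chgb kept their calls at 1.72 and 1.20.

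Scg3, secretogranin III, which tethers chromogranin A to the granule membrane, averaged 17.26 ± 0.09 in retina against 17.17 ± 0.07 in cortex (SD, n = 5), within the range of the repeat arrays (0.09, SE 0.05, adjusted p = 0.18). Without normalization its sign turned (-0.34). Pcsk1n, the gene of proSAAS, an inhibitor of the convertase encoded by Pcsk1, was at 18.28 ± 0.14 and 17.90 ± 0.06 (0.38, SE 0.065). Its sign turned as well without normalization (-0.17).

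None of the 3 measured processing enzymes was called. Cpe, carboxypeptidase E, read 20.15, 20.30, 20.27, 20.25 and 20.28 in retina and 19.40, 19.41, 19.48, 19.25 and 19.46 in cortex. The arrays did not overlap, but the difference of 0.85 (SE 0.07, adjusted p = 6.74e-09) fell short of 2-fold. Pam, the amidating enzyme, was at 14.65 ± 0.08 and 14.44 ± 0.09 (0.22, SE 0.06, and -0.17 without normalization). Pcsk1, a prohormone convertase, lay just short of the call at 0.98 (SE 0.29, adjusted p = 0.0102), with cortex dim and the retina arrays spread from 9.99 to 11.65. Its retina mean of 10.89 was just above the yardstick. Pcsk1 was called without retina replicate 1 (1.21), retina replicate 3 (1.03) or cortex replicate 2 (1.15). The difference was smaller, with no call, when dim values were raised (0.32) and without normalization (0.46).

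Promoter letters were looked at because 4 granins were higher together and because the cyclic AMP response element was first described in the promoter of the somatostatin gene. RefSeq promoters (build GRCm38.p6), from 250 bases before the start to 50 after it, matched 48 of the 60 genes. The full palindrome TGACGTCA was present in 6 of these 48 (12.5%) and in 2.03% of the 27025 genes with a promoter of the same length. The 6 were Scg2, Chgb, Cartpt and Ucn (called higher in retina, Ucn from dim values in both tissues), Sst (called lower) and Pcsk1 (not called). Chga and Scg5, also called higher, did not have the palindrome in this window. The stretches that hold it are shown on the strand of the gene, with the palindrome in capitals:

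Scg2, chr1:79440061-79440120, minus strand: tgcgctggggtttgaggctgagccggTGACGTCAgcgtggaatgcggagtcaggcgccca

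Chgb, chr2:132781544-132781603, plus strand: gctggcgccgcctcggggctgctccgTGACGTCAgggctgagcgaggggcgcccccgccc

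Cartpt, chr13:99900762-99900821, minus strand: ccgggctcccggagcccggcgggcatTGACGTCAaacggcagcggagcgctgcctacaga

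Ucn, chr5:31138906-31138965, minus strand: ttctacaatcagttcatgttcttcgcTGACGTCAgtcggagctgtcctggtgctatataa

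Sst, chr16:23890859-23890918, minus strand: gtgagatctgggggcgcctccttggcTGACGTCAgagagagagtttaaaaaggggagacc

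Pcsk1, chr13:75089753-75089812, plus strand: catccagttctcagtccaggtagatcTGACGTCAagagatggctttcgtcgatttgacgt

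The shorter core TGACG, on either strand and contained in the palindrome, was found in 25 of the 48 promoters (52.1%) and in 23% of all genes. Among the 25, 8 were called higher (Cartpt, Chga, Chgb, Ghrh, Scg2, Scg5, Ucn and Vip) and 8 lower. The AP-1 letters TGANTCA were in 6 of 48 and 8.97% of all genes, the TATA letters TATAAA in 16 of 48 and 15.7%, and the left part of the RE1 element, TTCAGCACC, in Scg2 alone and 0.433%. These are matches of letters, and binding was not measured.

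Ttr, transthyretin, the thyroxine carrier made by the choroid plexus and the retinal pigment epithelium, was bright in both tissues. It read 18.40, 18.35, 18.31, 18.38 and 18.28 in retina and 19.64, 19.68, 19.86, 19.73 and 19.74 in cortex (-1.38, SE 0.06, adjusted p = 2.12e-12). Of 8 measured choroid plexus genes, 4 were higher in retina (50%, beside 14.2% of all named genes). These were Aqp1 (4.79), Folr1 (1.67), Clic6 (1.29) and Kl (1.01), and the last pair lost their calls with dim values raised. Sostdc1 lay lower on every retina array without a call (-0.47, SE 0.069), and Cldn2 and Msx1, dim in both tissues, were at -0.86 each. Without normalization Cldn2 (-1.39) and Msx1 (-1.24) were called lower, and 2 of the 8 were higher, beside backgrounds of 24.3% and 8.86%. The summed intensity of that list ran from 184000 to 197000 in retina, 83.6% of it Aqp1, and from 29300 to 32700 in cortex, 55.4% of it Sostdc1. Of 8 measured pigment epithelium genes, 6 were higher in retina, among them Rpe65 (6.81, and 3.75 with its dim cortex values raised), and none was lower, with sums of 111000 to 125000 and 1990 to 3320. Their part in the Ttr values was not tested.

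Receptor genes were set beside the peptides because a peptide acts only where a receptor is present. Of 61 measured genes of a peptide receptor list, 5 were higher in retina, 17 were lower and 39 were not called (36.1% called, beside the background of 29.0%). The split was 2 higher and 22 lower without normalization, beside backgrounds of 8.86% and 24.3% of all named genes. With dim values raised it was 3 and 9, in a setting that called 19.1% of all named genes. In 38 of the 61 both tissues were dim, so most of the list could not be read.

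For a pair of peptides higher in retina a receptor was higher too. Vipr2, a receptor of vasoactive intestinal peptide, averaged 12.09 ± 0.10 in retina against 7.70 ± 0.31 in cortex (4.39, SE 0.23), whereas Vipr1, which binds the same peptide, was at 11.47 and 11.74 and was not called (-0.26, SE 0.11). Tacr3, the receptor that prefers neurokinin B, was at 12.20 ± 0.11 and 8.97 ± 0.22 (3.23, SE 0.17). In both, cortex was dim, and the differences were 1.26 and 1.38 with dim values raised. These receptors are known from bipolar and amacrine cells, but the arrays do not resolve cell types.

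Several receptors were lower in retina together with their peptide. Ntsr1, the high-affinity neurotensin receptor, averaged 10.79 ± 0.13 in retina against 14.81 ± 0.09 in cortex (-4.02, SE 0.08), and Ntsr2 was lower by 3.83, but only by 0.52, with no call, once dim values were raised. Of the somatostatin receptors, Sstr4 (-4.65, SE 0.20, with retina dim, and -2.51 with dim values raised) and Sstr2 (-1.83, SE 0.10) were lower and Sstr3 was higher (1.29, SE 0.34), the last from dim values in both tissues and not without normalization (0.80). Oprl1, the nociceptin receptor, differed by -2.31 and, with dim values raised, by -1.60. Npy1r and Npy2r (-3.10 and -3.44), Avpr1a (-3.81) and Grpr (-1.86) were called lower, but none of these 4 kept its call with dim values raised (-0.36, -0.31, -0.51 and 0.05).

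Other peptides and receptors differed in direction. Edn2 was higher in retina and Ednrb, the endothelin B receptor, was lower (-3.31, SE 0.14, and -2.73 with dim values raised). Ghrh was higher, while its receptor gene Ghrhr was dim in both tissues. Crh was dim in both and its receptor gene Crhr1 was lower in retina, at 11.44 ± 0.19 against 12.98 ± 0.12 (SD, n = 5). Nmb was not called and its receptor gene Nmbr was called higher at 1.06 (SE 0.26), a call that was lost without normalization (0.55) and without cortex replicate 4 (0.80). Its cortex mean was dim (9.88), and the call was also lost with dim values raised (0.18), with the offset of 500 (0.75) and against a 1.5-fold difference.

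**Figure D3:**
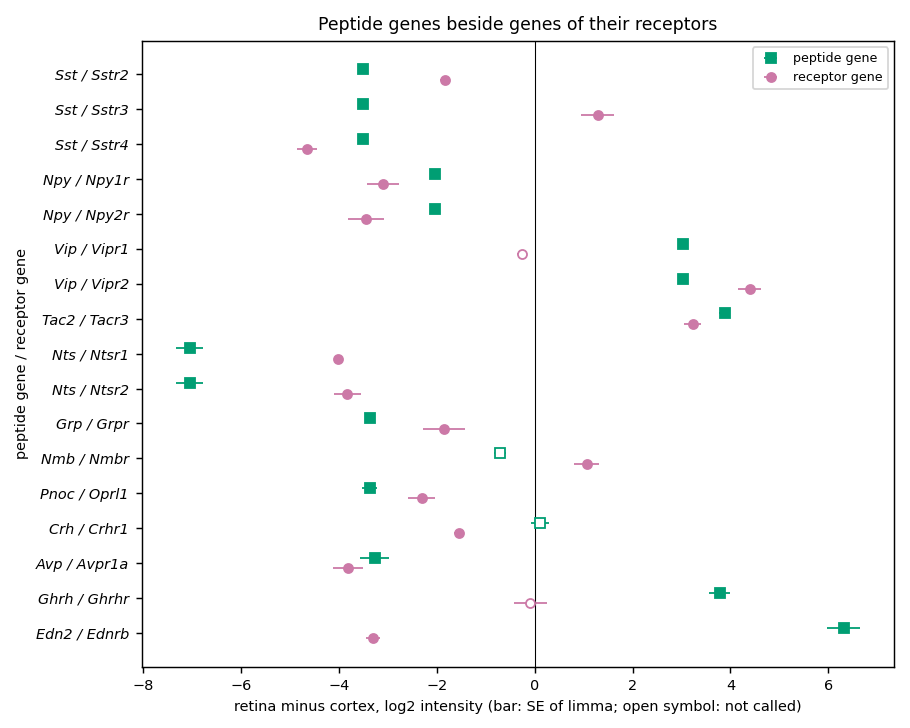
Retina minus cortex difference (log2 intensity, horizontal axis) of 17 pairs of a peptide gene (square) and a gene of its receptor (circle), with the SE of limma as bars and open symbols for genes not called. Vip with Vipr2 and Tac2 with Tacr3 lie to the right, Nts with Ntsr1 (-7.05 and -4.02) to the left, and Edn2 and Ednrb (6.31 and -3.31) on opposite sides.

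Of 26 measured genes of granule release and precursor processing outside the 52, 6 were higher, 6 were lower and 14 were not called. This is 46.2% called, beside the background of 29.0% of all named genes. Without normalization 2 were higher and 9 lower, beside backgrounds of 8.86% and 24.3%. With dim values raised the counts were 3 and 4, beside 19.1% of all named genes called either way. Ptprn, a membrane protein of dense-core granules also known as IA-2, was higher (1.16, SE 0.07, and 0.77 with no call without normalization), as was the granule calcium sensor Syt9 (1.56, SE 0.08). Crhbp, which binds corticotropin-releasing hormone and urocortin, averaged 12.14 ± 0.06 in retina against 10.07 ± 0.22 in cortex (2.07, SE 0.14, and 1.31 with its dim cortex values raised). Cadps2, which primes dense-core granules for release, was lower (-1.80, SE 0.07). Cadps, from the same list and brighter than Cadps2 in both tissues, had a difference of 0.87 (SE 0.069) and was not called. Every retina value of Cadps was nevertheless above every cortex value. Syt5 (-2.35, SE 0.06) and Cyb561 (-1.89, SE 0.12), the cytochrome that carries electrons into granules for the amidating enzyme, were lower. Of 12 measured enzymes of peptide breakdown, Enpep was higher (1.99), Nln (-3.50), Ecel1 (-3.19, but -1.04 with its dim retina values raised) and Prep (-1.17) were lower and 8 were not called. Their called share of 33.3% lay near the background of 29.0%. Nln encodes neurolysin, which cleaves neurotensin, and it averaged 11.49 ± 0.27 in retina against 14.99 ± 0.06 in cortex (SD, n = 5).

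Markers of the cells that hold these peptides differed between the tissues as well. Of 8 measured amacrine cell genes, 6 were higher in retina (75%, beside 14.2% of all named genes) and 2 were not called. Pax6 (4.33), Tfap2b (3.56), Calb2 (2.97) and Slc6a9 (2.82) kept their calls with dim values raised. Chat (3.63) and Tfap2c (2.38), both dim in cortex, lost theirs (0.58 and 0.44). The ganglion cell list had 6 measured genes, 4 higher in retina (66.7%, beside the same background) and 2 not called. Of 7 forebrain interneuron genes, 5 were lower (Dlx1 at -8.18, Dlx5 at -6.88, Npas1 at -6.25, Sp8 at -5.39 and Dlx2 at -3.41), 1 was not called and Gad1, the GABA-synthesizing enzyme, was higher (1.40, but 0.94 and not called without normalization). The lower share was 71.4%, beside 14.7% of all named genes. The 5 lower genes were dim in retina, and with dim values raised they were at -5.00 (Dlx1), -4.15 (Dlx5), -3.77 (Npas1), -2.34 (Sp8) and -0.39 (Dlx2, not called). The summed intensity of the amacrine list ran from 362000 to 393000 in retina and from 52600 to 57500 in cortex, with Calb2 the brightest gene in both. That of the interneuron list was 231000 to 310000 in retina, where Gad1 made up 98.7%, and 226000 to 242000 in cortex, where Gad1 made up 42.5%. What part of the peptide differences goes with the numbers of such cells was not tested.

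The treatment of dim values moved the size of many differences more than the scaling did. Of the 29 calls, 25 held with dim values raised (a setting that called 19.1% of all named genes), 26 held without normalization, and 22 held under every alternative that tested them. With dim values raised, the difference of Gh went from -8.15 to -4.47, that of Igsf1 from -4.45 to -1.47 and that of Trh from -3.88 to -1.39. In all 3 the retina values were dim.

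**Figure D4:**
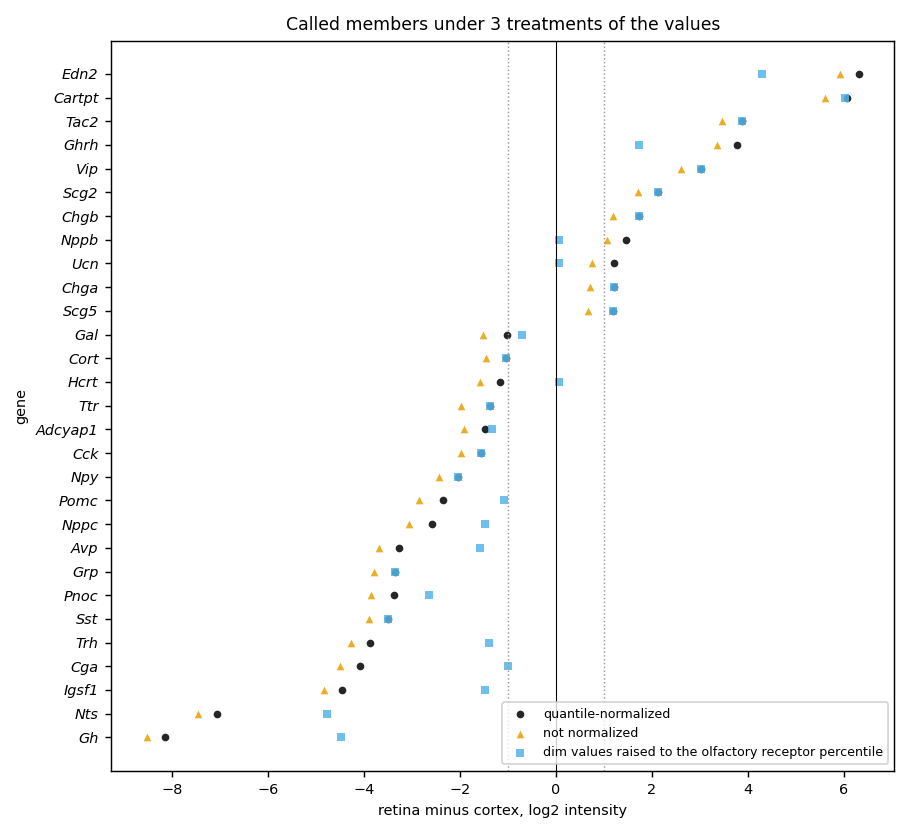
Retina minus cortex difference (log2 intensity, horizontal axis) of the 29 called genes with quantile normalization (circle), without normalization (triangle) and with dim values raised to the olfactory receptor percentile (square), with dotted lines at the 2-fold minimum. Gh moves from -8.15 to -4.47 with dim values raised, while Sst, Npy, Cck, Vip, Tac2, Scg2 and Chgb, dim in neither tissue, keep their place.

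The repeat arrays agreed closely for the brighter genes. Among the 52, the median SD over 5 arrays was 0.115 for the 29 genes above the yardstick in retina and 0.71 for the 23 below it. In cortex it was 0.085 for 36 genes above and 0.716 for 16 below. For dim genes that were not called, differences of the size of this spread could not be resolved.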

How the data were processed

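Total RNA of each pool was copied into cRNA carrying digoxigenin and read by chemiluminescence, per the labels' protocols. The deposited values are positive linear intensities for 33012 probes on 10 arrays. How the authors corrected and scaled these deposited intensities is not given in the sources used here. Depth does not apply to arrays, and their number limits the precision. Values were put on the log2 scale and quantile-normalized. Retina was compared with cortex in R 4.3.3 with limma 3.58.1 (lmFit, eBayes with an intensity trend, 2-sided), with Benjamini-Hochberg adjustment over all probes. SE is that of limma. Of the probes, 14411 had 1 platform symbol, 247 had several and 18354 were not listed and stayed unnamed. All 52 genes matched a RefSeq entry by Entrez ID. Any of the 52 measured genes could be named. Of the related lists, the called genes with the larger differences and the receptors or partners of a described member were named, and other genes only with their values.

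The genes and lists (peptide receptors, granule machinery and processing, peptide breakdown, and markers of pituitary, hypothalamus, choroid plexus, retinal pigment epithelium, amacrine cells, retinal ganglion cells, rods, forebrain interneurons, endothelium and Müller glia) were chosen with earlier results of these data known. Of 6 measured Müller glia genes, 3 were higher in retina (50%, beside 14.2% of all named genes) and 3 were not called. The scripts were tested on simulated data.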

Additional observations from a re-analysis of the deposited data

Results flagged for a closer look

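In 5 of 104 sets of 5 repeat arrays, 1 array lay far from the other 4 relative to the range of the set (gap over range above 0.71). About 1 set in 20 meets this by chance. For Avp, cortex array 4 gave 12.34 and the other 4 gave 12.49 to 12.51. For Igsf1, cortex array 2 gave 12.56 and the rest 12.30 to 12.34. The Pdyn value of retina array 3 was 14.66, below a range of 14.88 to 14.96. Prl was dim on all retina arrays, with 9.41 on array 3 above 7.36 to 7.86. Trh, also dim in retina, gave 6.99 on array 1, below 8.45 to 8.93.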

How the results depend on the processing

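The 52 genes were recomputed under 20 alternatives. Beside the 11 higher and 18 lower calls, leaving out 1 array gave 10 to 12 higher and 17 to 19 lower. Dropping the minimum fold can only add calls, and it gained 10 (18 higher in all). The dimmer Igsf1 probe could change only the Igsf1 call, which held. No call was lost without the intensity trend or with the replicate number as a block (8398 probes called, against 8379). That block rests on a shared number alone: same-numbered arrays correlated at -0.020 to 0.029 in their deviations, and 3 of 5 numbers matched best with their own. Among probes above the median in the brighter tissue, 43 of the genes were tested and the 26 calls tested held, with Hcrt, Nppb and Ucn not tested. Other lost calls stand beside the values of their genes above, apart from those of Cort (-0.96), Gal (-0.83), Hcrt (-0.51), Nppb (0.66) and Ucn (0.58), which were lost with an offset of 500. Nppb was lost against a 1.5-fold difference as well, and Cpe was gained there.

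Over all probes, 3987 were higher and 4392 lower. The counts were 2474 and 7621 without normalization, 7441 and 8263 (15704 in all) with no minimum fold, and 2383 and 2499 (4882 in all) with dim values raised. The receptor, machinery and breakdown lists held 38 calls, and 23 with dim values raised.

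With dim values raised, Hcrt, Kiss1, Nmu, Uts2, Ghrhr and Pitx1 were at 0.07, the gap between the mean floors of 10.89 and 10.83 before rounding, Grpr at 0.05 and Adm at 0.18. Hcrt and Grpr had been called lower, and so had Hcrtr2, Npy5r, Syt7, Sim1 and Cdh5 (0.07 with dim values raised), Rab3d (0.03) and Calcr (0.02). Without normalization, Calcb and Crh were at -0.42, Scg3 at -0.34, Edn3 at -0.18, Pam and Pcsk1n at -0.17, Nppa at -0.08, Prl at -0.04 and Tac1 at -0.01. With array medians set equal, Npff was at 0.12, Ghrhr at 0.11, Lhb at 0.06 and Uts2 at 0.01. Leaving out 1 array moved Calcb from -0.18 to 0.21, Lhb from -0.08 to 0.04, Npff from -0.06 to 0.00, Prl from -0.04 to 0.47, Uts2 from -0.50 to 0.20 and Ghrhr from -0.22 to 0.18. Apart from the floors, the cause was not tested. Signal near that of the olfactory receptor probes limits what 5 arrays a tissue can resolve.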
